A study of Mus musculus with 6 samples.

Results

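The Zswim2 cluster is a stretch of mouse chromosome 2 that holds the gene Zswim2 and a tandem run of gene models named Gm13698, Gm13693, Gm13696, Gm13694, Gm13697 and Gm13691. Its 7 members, of 55335 genes in the files, were chosen by symbol with their levels in these libraries already known. Their difference between DRB-treated and control embryos is therefore given as a description, with no test. The 7 members hold 3 distinct sets of values, since 5 of the copies carry the same value in each of the 6 libraries. RNA was measured in mouse 4-cell embryos in 2 groups of 3 libraries. DRB embryos were zygotes given 20 µM DRB, an inhibitor of RNA polymerase II elongation, from 6 h after fertilization for 20 h, washed, and cultured for another 26 h without it. Con embryos are the control group, and the labels do not say whether they received the vehicle. The strain, the number of embryos in each library and whether replicates came from separate matings or cultures are not given in the labels. The p-values then reflect only how far these libraries scatter, which may be technical.

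Zswim2 encodes a ubiquitin ligase with a SWIM zinc finger, known from the testis, which ubiquitinates itself and promotes cell death induced by death receptors. The copies are named here only by their model names, but their sequence is close to the mRNA of Cwc22, a splicing factor that brings the RNA helicase EIF4A3 to the spliceosome so that exon junction complexes can be laid down on spliced RNA. An intronless copy of a spliced gene usually arises when an mRNA is reverse transcribed and inserted elsewhere in the genome, and such copies can then be multiplied by duplication of the DNA around them.

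Zswim2 (ENSMUSG00000034552.8) lies on the minus strand at chr2:83915079-83941228 (GRCm38, the assembly also called mm10), with up to 9 exons. The copies lie on the plus strand beyond its 5′ end, so that Zswim2 and the copies are transcribed away from each other. The first copy, Gm13698, starts 14.5 kb from the 5′ end of Zswim2, and the run of 7 copies spans 37.4 kb. Each copy starts exactly 5810 bases after the one before it. In order the run holds Gm13698 (chr2:83955693-83958185), Gm13693 (chr2:83961503-83963995), Gm13695 (chr2:83967313-83969805), Gm13696 (chr2:83973123-83975615), Gm13694 (chr2:83978933-83981425), Gm13697 (chr2:83984743-83987235) and Gm13691 (chr2:83990553-83993045). Gm13695, which stands 3rd in the run, is not a member. GENCODE lists all of the copies as protein coding, while the RefSeq promoters used here hold none of the member copies. Whether the copies make protein was not tested.

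**Figure D1:**
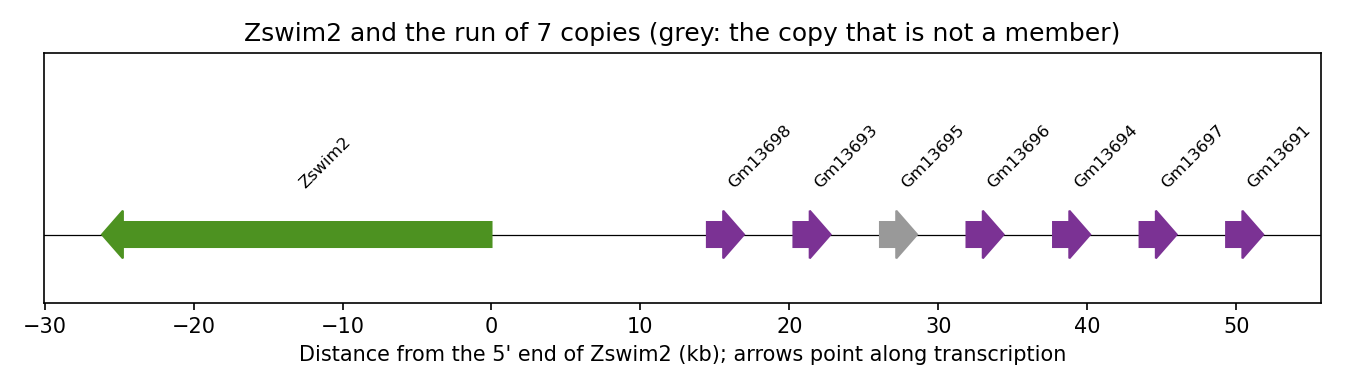
Position of Zswim2 and the 7 copies, as distance in kb from the 5′ end of Zswim2 on the x axis. Arrows point along transcription; the copies start 14.5 kb away, on the opposite strand to Zswim2, and follow each other every 5810 bases.

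The copies were nearly the same sequence. The 6 member copies were identical over their whole longest annotated transcript of 2493 bases, which lies in 1 exon. Gm13695 and the member copies other than Gm13691 have 2 transcripts, with up to 2 exons, and only the longest was compared. Gm13695 differed from them by 1 base, A1280T, where positions are counted from 1 at the first base of the copy, the member copies have the first letter and Gm13695 has the second. That base lies in codon 427 and changes 1 residue. The 2 lines that follow show the stretch around it, from base 1250 to base 1310 of each copy, with the differing base in capitals. This base is the whole difference between Gm13695 and the other copies over those 2493 bases. The DNA between copies was not compared. The lines are given for that base (Gm13698 at chr2:83956942-83957002 and Gm13695 at chr2:83968562-83968622, plus strand, GRCm38).
Gm13698: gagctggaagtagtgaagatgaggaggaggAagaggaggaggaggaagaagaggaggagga
Gm13695: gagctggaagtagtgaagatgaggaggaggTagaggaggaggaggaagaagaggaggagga
A read within the annotated transcript that does not cover base 1280 cannot be placed on 1 copy rather than another.

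The copies matched the spliced RNA of Cwc22 (ENSMUSG00000027014.14), a gene on the minus strand of the same chromosome at chr2:77881159-77946375, 6.01 Mb from the first copy. Of the bases of a copy, 2477 aligned to the Cwc22 transcript of 3090 bases, with 39 substitutions and an identity of 98.43%. The alignment crossed 18 exon junctions of Cwc22. It held 3 gaps, 15 bases present in the copy alone, 3 present in Cwc22 alone and 1 present in the copy alone, the last of them 29 bases before the end of the copy. The reading frame of a copy was open for 830 codons, with 0 stop codons before its end. Codons were compared in the frame of the copy, with the aligned Cwc22 bases read in that frame. Of those that differed by a substitution, 18 kept the residue of the Cwc22 bases and 19 changed it. The last gap, of 1 base, is not a multiple of 3. Triplets of Cwc22 read after it are therefore out of frame with those before it. The 2 lines below show where exons 3 and 4 of Cwc22 meet, which an intron of 1153 bases separates in the genome, and the same stretch in a copy, with the 2 differing bases in capitals. They are given because an uninterrupted stretch across the junction is what sets a copy apart from its parent gene (Gm13698 at chr2:83955758-83955817, plus strand; Cwc22 from chr2:77931516-77932728 with the intron left out, minus strand, GRCm38).
Gm13698: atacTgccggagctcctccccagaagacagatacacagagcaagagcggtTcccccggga
Cwc22: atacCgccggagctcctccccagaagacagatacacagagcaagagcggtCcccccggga

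The values are FPKM, the number of fragments per kilobase of transcript, scaled to the mapped fragments of the library. The depth, estimated from the steps of low values, was 22400000 to 24800000 fragments per library. In each library 18485 to 22102 genes were above 0, the most of them in Con replicate 1. All 10 oocyte and cleavage markers looked at, such as the zona pellucida gene Zp3, were measured well enough to be tested, and 0 were called. The oocyte-secreted Oosp1 came nearest, at 177.7, 199.1 and 49.8 FPKM in DRB, against 30.9, 47.9 and 37.7 in Con (limma adjusted p 0.0963, and 0.01 without DRB replicate 3). Of 10 cumulus cell markers, 4 were at 0 in every library. The whole cumulus list summed to 143.7 to 275.8 FPKM in DRB and 213.0 to 387.2 FPKM in Con, most of it Gja1, a gap junction gene. Amhr2, its other tested gene, had 22.8, 19.8 and 28.2 FPKM in DRB, against 17.9, 23.4 and 17.9 in Con. Of these 2 tested genes 0 were called (limma adjusted p 0.38 for Gja1 and 0.747 for Amhr2). Of 11893 genes with at least 1 FPKM in at least 3 libraries, 182 rose and 113 fell in DRB at a Benjamini-Hochberg adjusted p below 0.05 in a limma fit, which is 1.53% and 0.95% of them. With median-of-ratios scaling 223 of 307 called genes were higher in DRB.

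Zswim2 stood at 23.87, 18.42 and 10.04 FPKM in DRB replicates 1 to 3, against 2.33, 1.73 and 0 FPKM in Con replicates 1 to 3. The groups did not overlap, and the lowest DRB library was 4.31 times the highest Con library. In estimated fragments that was 1060, 785 and 474 in DRB and 102, 77 and 0 in Con. In Con replicate 3 a single fragment would have been worth 0.0237 FPKM, so the listed 0 lies far below the other Con libraries. The mean of log2(FPKM + 1) was 4.13 in DRB and 1.06 in Con, a difference of 3.07, with a pooled SD of 0.78 within groups. Without Con replicate 3, the library at 0, the difference was 2.53. Ranked among all genes of its library, Zswim2 was 3467th, 3761st and 4843rd in DRB and 9302nd, 9924th and 18500th in Con. The rank in Con replicate 3 is a tie with every other gene at 0 there, below the 18499 genes above 0. These are bulk embryos, in which more RNA per cell and more cells with the RNA cannot be told apart.

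The copies followed the same pattern. The value shared by Gm13698, Gm13693, Gm13696, Gm13694 and Gm13697 was 19.36, 9.41 and 5.6 FPKM in DRB, against 1.13, 0.3 and 0.48 in Con. Gm13691 had 17.67, 9.41 and 5.6 FPKM in DRB, against 1.13, 0.3 and 0.28 in Con. Its annotated transcript is the same in sequence as their longest, though GENCODE gives it 1 transcript where they have 2. It was equal to the shared value in 4 of the 6 libraries and lower in DRB replicate 1 and Con replicate 3. For both, the lowest DRB library was 4.96 times the highest Con library, with no overlap of the groups.

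On the log2(FPKM + 1) scale the shared value differed by 2.81 between DRB and Con, with a pooled SD of 0.63, and Gm13691 by 2.83, with a pooled SD of 0.61. The median over the 3 distinct sets of values was 2.83, where the median of all tested genes was -0.09. That member median is the value of Gm13691, which is not independent of the shared value, since their copies are the same in sequence. All 3 sets had every DRB library above every Con library, which 9.85% of all tested genes also had, and 2.48% of all tested genes were called in either direction. Since the members were picked on this contrast, nothing is read from that count. All 7 members had at least 1 FPKM in at least 3 libraries. The copies reached that minimum through the DRB libraries and Con replicate 1, and Zswim2 also through Con replicate 2.

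The order within DRB was the same in each set of values. The shared value and Gm13691 belong to copies of the same sequence, so they are not independent of each other. Replicate 1 was the highest and replicate 3 the lowest, with the highest library 2.38 times the lowest for Zswim2, 3.46 times for the shared value and 3.16 times for Gm13691. Within Con, replicate 1 was the highest for every member. Without DRB replicate 1 the difference of the shared value was 2.37 and that of Zswim2 was 2.81.

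**Figure D2:**
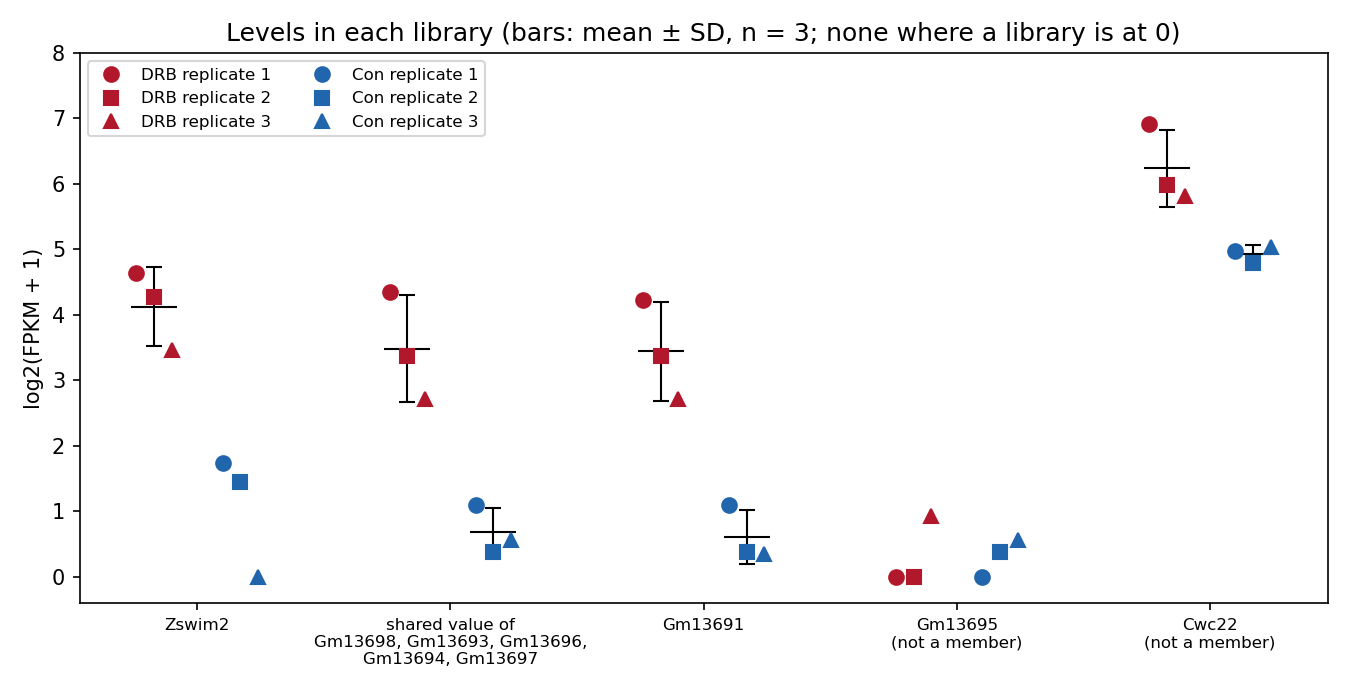
Log2(FPKM + 1) on the y axis for Zswim2, the value shared by 5 copies, Gm13691, Gm13695 and Cwc22 in the 3 DRB (red) and 3 Con (blue) libraries; bars are the mean ± SD of 3 libraries and are left out where a library is at 0. For the members all DRB points lie above all Con points, whereas Gm13695 stays at or below 0.9 FPKM.

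Gm13695, the copy with the base that differs, was listed at 0, 0 and 0.9 FPKM in DRB and 0, 0.3 and 0.48 FPKM in Con. It equalled the shared value in 2 Con libraries and was at 0 in 3 libraries, among them both DRB libraries with the most RNA from the other copies. Its groups overlapped. The other copies are too alike for their values to be told apart. Among genes with 1 transcript across the files, 41 groups were identical in sequence and above 0 somewhere, and 25 of them had equal values in all libraries. Of low values of genes with an identical partner, 29.5% were worth under 0.7 of a fragment, against 3.0% of low values of genes with no such partner. Which of the copies were transcribed was not tested.

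How fragments that fit several copies were counted is not stated in the labels or processing notes. If each was divided among the copies, their sum gives the level of all of them. If each was counted in full at every copy, the sum counts it several times and the shared value is nearer to that level. Under full counting, fragments that miss base 1280 would count for Gm13695 too. It was listed at 0 FPKM in DRB replicates 1 and 2, where the shared value was 19.36 and 9.41. How fragments were counted was not tested. The listed values of the 7 copies together came to 114.5, 56.5 and 34.5 FPKM in DRB, against 6.78, 2.1 and 3.16 in Con. The 6 member copies alone differed by 3.83 on the log2(FPKM + 1) scale, larger than the 2.81 of the shared value because adding 1 FPKM shrinks the differences of low values. By this sum the copies were 4.8, 3.07 and 3.44 times as high as Zswim2 in DRB. In Con replicates 1 and 2 they were 2.91 and 1.21 times as high as Zswim2, and no ratio can be given for Con replicate 3.

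Cwc22, the spliced gene, was measured at 119.17, 62.39 and 55.55 FPKM in DRB, against 30.57, 26.66 and 31.79 in Con. Its groups did not overlap, with means of 79.0 ± 34.9 FPKM in DRB and 29.7 ± 2.68 FPKM in Con (SD, n = 3 each). The log2 fold change of 1.30 ± 0.34 (SE) did not pass the limma test over all genes (adjusted p 0.0689). It passed with median-of-ratios scaling (adjusted p 0.0419), and over all alternatives the adjusted p ran between 0.0419 and 0.295. Set against Cwc22, the summed copies were at 96.1%, 90.5% and 62.1% of its level in DRB, against 22.2%, 7.88% and 9.94% in Con. If fragments were counted in full at every copy, the shared value is the one to set against Cwc22, at 16.2%, 15.1% and 10.1% of its level in DRB and 3.7%, 1.13% and 1.51% in Con. By either measure the ratio was higher in each DRB library than in any Con library. Since the copies were picked on this contrast, nothing is read from that order. Like the members, Cwc22 was highest in DRB replicate 1. The copies and the coding part of Cwc22 are 98.43% identical, and how far fragments of one were counted for the other was not tested.

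**Figure D3:**
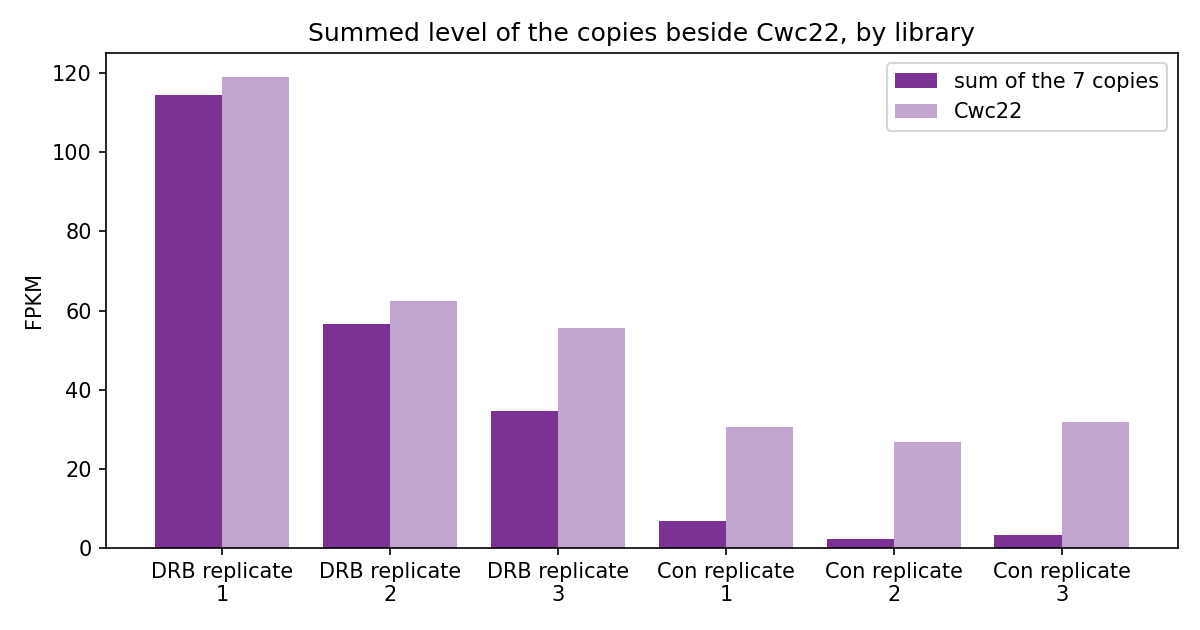
FPKM on the y axis for the sum of the 7 copies (dark bars) and for Cwc22 (light bars) in each DRB and Con library. The listed values of the copies sum to 62.1% to 96.1% of Cwc22 in DRB, and 7.88% to 22.2% in Con.

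Genes that work with Cwc22 were read from the same fit. Of 9 genes of the exon junction complex and of other CWC splicing factors, a list chosen after the copies had been aligned to Cwc22, all 9 were tested and 0 were called in either direction by limma, with 1 at an unadjusted p below 0.05. Of all tested genes 2.48% were called and 18.1% had an unadjusted p below 0.05, shares that also give few genes in a list this short. Their median log2 fold change was 0.05, against -0.09 over all tested genes. Magoh, a core subunit of the complex, stood at 1802 ± 369.6 FPKM in DRB and 1127 ± 139.5 FPKM in Con (SD, n = 3 each), a log2 fold change of 0.66 (limma adjusted p 0.213). Eif4a3, the helicase that Cwc22 binds, stood at 720.9 ± 133.7 FPKM in DRB and 691.4 ± 89.5 FPKM in Con (log2 fold change 0.05, limma adjusted p 0.941), and the sign of its difference turned when DRB replicate 1 or Con replicate 2 was left out (log2 fold changes of -0.09 and -0.03).

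The genes around the cluster were looked at for the same difference. Within 1000 kb of the run lay 45 other annotated genes, Gm13695 among them, of which 19 were at 0 in every library. Of the 15 that could be tested, 0 were called by limma and 1 reached an unadjusted p below 0.05, beside 2.48% and 18.1% of all tested genes. That gene, the transporter gene Slc43a3, was named after its values were seen and had 2.64, 6.7 and 2.4 FPKM in DRB, against 12.95, 9.3 and 5.93 in Con (log2 fold change -1.13, limma adjusted p 0.233). The median of the 15 was -0.25, 7 of them had a positive log2 fold change, and 0 had all DRB libraries above all Con libraries. The most abundant of them were Timm10, a mitochondrial import chaperone, with a difference of 0.09 ± 0.29 in log2 (SE; limma adjusted p 0.904), and Zc3h15, a zinc finger gene, with 0.28 ± 0.31 (SE; limma adjusted p 0.709).

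The genes nearest to the cluster were at quite different levels. On the side of Zswim2, Fam171b had 0.02, 3.16 and 0.69 FPKM in DRB, against 0.19, 0 and 0 in Con, too low to be tested. Farther along, the integrin gene Itgav had 52.19, 42.43 and 35.04 FPKM in DRB, against 23.58, 45.2 and 50.58 in Con (log2 fold change 0.17, limma adjusted p 0.857). On the side of the copies the first gene that could be tested was Calcrl, a peptide hormone receptor whose 5′ end is 484.2 kb from that of Zswim2, with a log2 fold change of 0.48 (limma adjusted p 0.624). These 3 genes were named for their position, after their values had been seen.

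**Figure D4:**
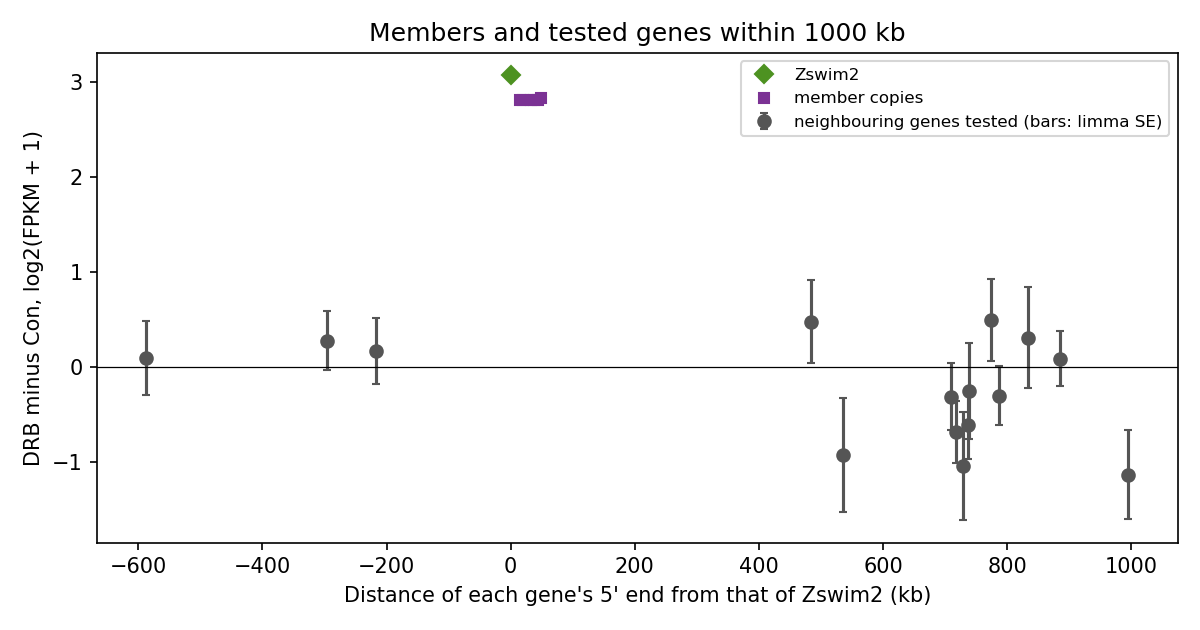
DRB minus Con on the log2(FPKM + 1) scale (y axis) against the distance in kb of each gene's 5′ end from that of Zswim2 (x axis), for the members and the 15 tested neighbours; bars are limma's standard errors. The members lie between 2.81 and 3.07, and the neighbours between -1.13 and 0.50.

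The list nearest to Zswim2 by name holds genes with the same kind of zinc finger. Of 8 other genes with a SWIM zinc finger name, 4 were tested and 0 were called in either direction, with 0 at an unadjusted p below 0.05 and a median log2 fold change of -0.51. Zswim3 stood at 6.47 ± 2.36 FPKM in DRB and 8.40 ± 0.44 FPKM in Con (SD, n = 3 each), and Zswim5 at 7.22 ± 2.16 FPKM in DRB and 3.98 ± 0.938 FPKM in Con, with limma adjusted p-values of 0.674 and 0.404. Of 18 genes of death receptor signalling and of ubiquitin-conjugating enzymes, 10 were tested and 0 were called in either direction by limma, with 0 at an unadjusted p below 0.05 and a median of -0.19. Of all tested genes 2.48% were called and 18.1% had an unadjusted p below 0.05, shares that give few or no genes in lists this short. The most abundant were the ubiquitin-conjugating enzymes Ube2d3 (log2 fold change -0.18, limma adjusted p 0.788) and Ube2e3 (-0.14, limma adjusted p 0.834). The difference of Zswim2 from its relatives was not tested, since Zswim2 was picked on its own difference.

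Zswim2 is known from the testis, so markers of sperm cells were read beside it. Of 12 such genes, 3 were at 0 in every library and 2 could be tested. The protamine genes Prm1 and Prm2, which package sperm DNA, reached at most 1.08 FPKM, and Tnp2, a transition protein gene, was at 0 throughout. The 12 genes summed to 18.8, 24.4 and 12.6 FPKM in DRB, against 20.5, 22.8 and 12.9 in Con, with overlap of the groups. Most of that came from Ldhc, a lactate dehydrogenase that oocytes also express, and Odf2, which also serves centrosomes. Their log2 fold changes were -0.32 and 0.62, with limma adjusted p-values of 0.763 and 0.442. Odf2 had 8.12, 6.87 and 5.24 FPKM in DRB, against 4.7, 3.61 and 3.7 in Con, with no overlap. Every DRB library was above every Con library in 9.85% of all tested genes.

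Genes of the 2-cell stage, known from the start of embryonic transcription, were set beside the members. Of 30, 21 were tested, 6 rose and 0 fell in DRB in limma's fit, where 1.53% of all tested genes rose. The list was chosen with earlier results of these data known, so nothing is read from that count. Their median log2 fold change was 1.69, and the median level in a library was 3.95, 4.84 and 4.44 on the log2 scale in DRB, against 3.42, 2.24 and 1.6 in Con. By this median replicate 2 was the highest and replicate 1 the lowest within DRB. The list summed to 1040.9, 1652.9 and 828.9 FPKM in DRB, against 888.2, 459.7 and 478.3 in Con, so that by the sum DRB replicate 3 was the lowest of its group and lay below Con replicate 1. Pramef25, of a multi-copy family whose reads may be shared, had 17.1, 51.0 and 7.75 FPKM in DRB, against 0.81, 0.78 and 1.01 in Con (3.44 ± 0.59 in log2, SE; limma adjusted p 0.0158). Gm5662 had 164.1, 545.2 and 82.0 FPKM in DRB, against 21.3, 15.8 and 16.1 in Con (3.40 ± 0.55 in log2, SE; limma adjusted p 0.0125). Without DRB replicate 1 the count of 6 came to 1, and the limma adjusted p-values of these 2 genes to 0.0669 and 0.0623. With no filter on low values 0 were called, and the 2 adjusted p-values were 0.218 and 0.227.

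Genes whose pattern over the 6 libraries was most like that of the members were found by the root mean square difference of log2(FPKM + 1), each gene centred on its own mean. Over 11886 tested genes that are not members, the median of that difference was 1.62 from the mean pattern of the members and 1.74 from Zswim2, and Zswim2 and the shared value of the copies differed by 0.54. Because the pattern sought is high in DRB, the genes found are high in DRB by choice, and their levels are given with no test. The closest to the mean pattern were Spesp1, a gene of the sperm equatorial segment, at 0.25, Slc35e3, of a solute carrier family, and Gadd45a, which is induced by DNA damage, both at 0.27, and Scamp1, of secretory carrier membranes, at 0.30.

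Gadd45a had 55.9, 32.5 and 21.2 FPKM in DRB, against 3.06, 2.99 and 2.47 in Con. Scamp1 had 118.4, 83.5 and 54.3 FPKM in DRB, against 9.38, 8.61 and 9.01 in Con. Both had the order of replicates that the members had within DRB, which the choice by pattern also favours. The other 4 were Gm6882 (0.33), the processed pseudogenes Gm9030 (0.34) and Gm6189 (0.35), whose reads may be shared with their parent genes, and Gm21847 (0.35), which is annotated as antisense and cannot be told from an overlapping gene where strand is not used. Slc35e3 had 41.5, 21.4 and 17.8 FPKM in DRB, against 4.24, 4.10 and 2.28 in Con.

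Closest to Zswim2 alone were Gm21847 at 0.33, Zfp352, which encodes a zinc finger protein, at 0.40, and Spesp1 and Gm6882 at 0.42. After them came Slc35e3 and the adhesion receptor Adgrv1 at 0.45, and an immunoglobulin variable pseudogene on chromosome 12 and Ttc30b, an intraflagellar transport gene, at 0.46. Of these, Ttc30b is the 1 on chromosome 2, with 15, 19 and 9.01 FPKM in DRB, against 1.09, 1.41 and 0.61 in Con. Spesp1 had 15.6, 16.0 and 7.43 FPKM in DRB, against 1.93, 0.73 and 0.53 in Con. Zfp352 had 41.1, 55.0 and 36.9 FPKM in DRB, against 7.69, 3.59 and 2.03 in Con. Cwc22, the parent of the copies, ranked 268th by likeness to the mean pattern of the members, with a difference of 0.87.

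**Figure D5:**
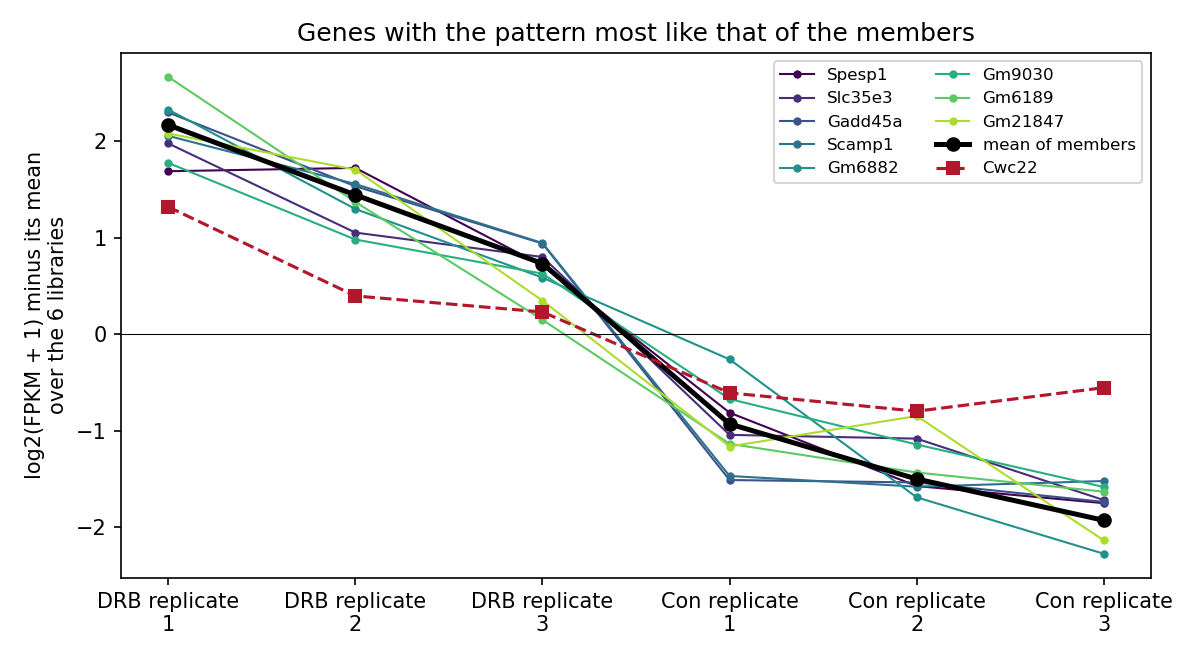
Log2(FPKM + 1) minus its mean over the 6 libraries (y axis) in each DRB and Con library (x axis), for the mean of the 3 distinct sets of member values (black), the 8 genes with the most similar pattern (thin lines) and Cwc22 (dashed). The 8 genes follow the members within 0.25 to 0.35 by root mean square, and Cwc22 differs by 0.87.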

How the data were processed

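Libraries were made from mouse 4-cell embryos by Smart-Seq2, which copies polyadenylated RNA from an oligo-dT primer, per the labels' protocols. The submitters' processing notes name cutadapt 1.16, STAR and the genome build mm10. Neither the program that computed the values nor its use of strand or of fragments that map to several genes is stated there. Per the file headers, the authors deposited FPKM for each gene. The sum of FPKM is not fixed, so a change in abundant RNA shifts other genes.

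Of the gene IDs, 55154 matched GENCODE M21 and 181 did not. Genes reaching 1 FPKM in 3 or more libraries entered a limma 3.58.1 fit (R 4.3.3) of log2(FPKM + 1) with a mean-variance trend, all 6 libraries and two-sided p-values, called below 0.05 after Benjamini-Hochberg adjustment. The fit was tested on simulated data with normal scatter and large planted changes. That check does not cover smaller changes or genes near 0. Differences are DRB minus Con on this log2 scale, which understates changes of low genes. Copies were aligned with Biopython 1.88. Depth came from low values of genes with 1 transcript, of which 76.2% to 85.9% lay within 0.15 of a whole fragment; counts were not rebuilt.

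The members and lists were chosen with earlier results of these data known. Named genes were all members, up to 2 called genes per direction of each list (without calls, the 2 most abundant tested), and the 8 most like genes per pattern. Alternatives were a pseudocount of 0.1, no filter, a minimum of 5 FPKM, 2 other scalings, a replicate block and leaving out each library. Summing the copies and the exon junction list were added after seeing the data. RefSeq promoters (GRCm38.p6, 300 bases) held 1 member, Zswim2. Its promoter held 0 matches, on either strand, to TATAAA (found in 13.6% of all promoters), to GGATTA (in 7.1%), to CAAGGTCA (in 1.6%) or to GATTNAATC (in 0.3%).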

Additional observations from a re-analysis of the deposited data

How the results depend on the processing

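The members, which were picked on this contrast, kept a higher level in DRB under each alternative that could change their difference. Their median difference was 2.83 on the log2(FPKM + 1) scale. It was 4.11 with a pseudocount of 0.1, since low Con values weigh more there. It was 2.44 to 3.19 when each library was left out in turn, and 2.88 and 2.93 under the 2 other scalings. The filters and the replicate block cannot change this difference, which stayed at 2.83. The sum over the 6 member copies, added after seeing the data, gave 3.83. Genes called numbered 295, and 164 with a pseudocount of 0.1, 6 with no filter, 171 with the replicate block and 47 to 220 when each library was left out, lowest without DRB replicate 1; the cause was not tested. Deviations of same-numbered libraries from their group means correlated at -0.0468, 0.053 and -0.0512. These values show no shared shift by number, but cannot decide whether such libraries shared a mating or culture. With mitochondrial genes left out the median of all genes shifted by 0.11, and the member median was then 2.93. When each library was left out, the log2 fold change of Eif4a3 ran between -0.09 and 0.16, and that of Timm10 between -0.14 and 0.28. Eif4a3 was at -0.03 and Timm10 at -0.01 without Con replicate 2. A single copy's Con value is worth 15 to 61 estimated fragments, and how many fragments lie behind all copies together depends on how shared fragments were counted, which the labels and processing notes do not say.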
